A study of Homo sapiens with 4 samples.

Results

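Sites shared by Fra-1 and DDX5 were examined here where the Fra-1 signal stood above input DNA but was not listed above a ChIP with normal rabbit IgG. They are the Fra-1 peaks called over input on chromosomes 1 to 22 and X that overlap a DDX5 peak called over input by at least 1 bp and overlap no Fra-1 peak called over IgG. The rule found 5152 such sites among 30405 Fra-1 peaks over input on these chromosomes (16.9%), and among 30571 in the whole list. They made up 78.1% (95% exact binomial interval 77.1% to 79.1%) of the 6599 Fra-1 peaks common with DDX5, and the other 1447 common peaks were also listed over IgG. The sites were thus selected on the calls of Fra-1 over input, DDX5 over input and Fra-1 over IgG, so their folds and pileups are a description.

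The series mapped both proteins by chromatin immunoprecipitation and sequencing in BT549, a human breast cancer cell line without oestrogen receptor alpha, with the stated aim of identifying events particular to each protein and events they share. All 4 libraries came from untreated BT549 cells grown in serum-containing medium: a Fra-1 ChIP, a DDX5 ChIP, an IgG ChIP and input DNA, 1 library each. There were no replicates, so no difference below has a replicate check, and intervals of shares cover counting error only. The relative depths could be read from the deposited pileups: set against the IgG library, Fra-1 pileups had to be multiplied by 0.884 and DDX5 pileups by 0.998 to reach the same depth. Absolute read depth is unknown.

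Fra-1 is a Fos-family protein that pairs with a Jun protein to form AP-1, a transcription factor that contacts DNA through a leucine zipper and a basic region. AP-1 is known in invasive breast cancer cells for driving genes of motility and matrix breakdown. DDX5, an RNA helicase of the DEAD-box family, remodels RNA and also joins transcription complexes as a coactivator, and it reaches chromatin through other proteins or through RNA. Input DNA records how readily a region is sheared, copied and aligned. An IgG ChIP adds what the beads and a non-specific antibody pull down, which is known to be uneven along the genome and tends to be higher in open, heavily transcribed chromatin.

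At these sites the Fra-1 and DDX5 signals were close to equal. The pileup of a peak is the number of fragments over its summit, and all pileups below are scaled to the depth of the IgG library unless the text says otherwise. The Fra-1 pileup had a median of 21.2 fragments (interquartile range 17.7 to 27.4) and the DDX5 pileup at the nearest DDX5 summit a median of 22.9 (19 to 28.9). The ratio of Fra-1 to DDX5 had a median of 0.936 (0.791 to 1.11). It lay within 1.5 times of equality at 4389 of the 5152 sites (85.2%, 84.2% to 86.1%), and DDX5 was at least as high as Fra-1 at 3140 (60.9%, 59.6% to 62.3%). Fra-1 was more than 2 times DDX5 at only 21 sites.

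The common sites that were listed over IgG had another balance of signals. There the median ratio was 3.85 (2.32 to 5.64), from a median Fra-1 pileup of 80.5 and a median DDX5 pileup of 20.9 fragments. DDX5 was at least as high as Fra-1 at 12 of these 1447 sites, and Fra-1 was more than 2 times DDX5 at 1174 (81.1%). The DDX5 pileup thus had nearly the same median in both kinds of common site, and the Fra-1 pileup did not. Listing over IgG favours a high Fra-1 pileup by construction, so the size of this contrast carries no test.

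**Figure D1:**
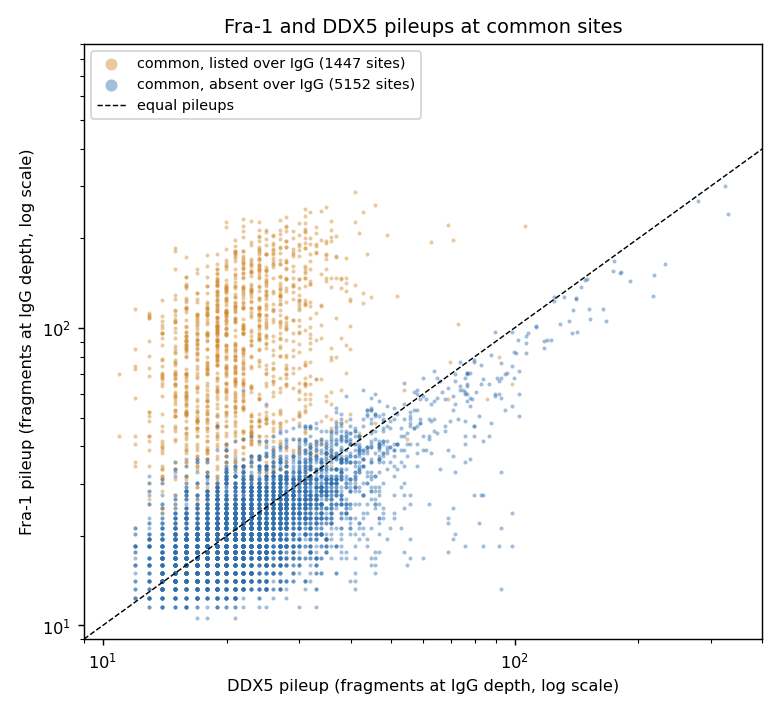
Each point is a common site, with its DDX5 pileup on the x axis and its Fra-1 pileup on the y axis, both in fragments at IgG depth on log axes; blue marks the 5152 sites absent over IgG, orange the 1447 listed over IgG, and the dashed line equal pileups. The blue sites follow the line (median ratio 0.936) up to pileups above 100, while the orange sites rise away from it (median ratio 3.85).

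Fra-1 and DDX5 pileups also rose together from site to site. Across the 5152 sites Spearman's rho between the pileups was 0.60, against 0.30 across the 1447 common sites listed over IgG. Across the same 5152 sites rho between the input level and the Fra-1 pileup was 0.53, and between the input level and the DDX5 pileup 0.53. Across the common sites listed over IgG the corresponding values were 0.29 for Fra-1 and 0.64 for DDX5. The points share the input library and neighbouring positions, so these values describe the lists and carry no p. Between the folds over input, which divide by the input level, rho was 0.42 for the sites absent over IgG and 0.12 for those listed.

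By fold over input most of the sites were modest. The fold, the authors' ratio of the pileup to the local control level, had a median of 4.38 for Fra-1 (3.65 to 5.33) and 4.54 for DDX5 (3.84 to 5.48). At least 8-fold in Fra-1 was reached by 182 of them, 3.53% (3.05% to 4.07%), against 29.6% of all Fra-1 peaks over input, a share that the rule itself pulls down. Of all 216 Fra-1 peaks of at least 8-fold that were absent over IgG, these 182 made up 84.3%, and the other 34 had no DDX5 peak. Both antibodies reached 8-fold at 98 sites. The 182 sites had a median width of 632 bp, summits a median of 49.5 bp apart and a median Fra-1 to DDX5 ratio of 1.04. The 1200 common sites of at least 8-fold that were listed over IgG had a median ratio of 4.41. Within the set, a median ratio near equality was thus also seen at the sites of at least 8-fold. The rule keeps such strong Fra-1 peaks only where they were not called over IgG, so the contrast in ratios is a description.

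Ranking the sites into 5 equal groups by Fra-1 fold showed how they vary among themselves. From the lowest to the highest group the median Fra-1 fold went from 3.09 to 6.52 and the median DDX5 fold from 3.94 to 5.64. Peaks widened from a median of 299 bp to 468 bp, and the median input level fell from 6.78 to 3.87 fragments at the depth of the Fra-1 library. The median ratio of Fra-1 to DDX5 went from 0.831 to 1.12. Low-fold sites thus lay where the input itself was high, and high-fold sites where it was low, as dividing by the input level would give by construction.

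The summits of both proteins coincided at most of the sites. The median distance was 73 bp (29 to 168 bp), and 3106 pairs (60.3%) were within 100 bp. The Fra-1 summit fell inside the DDX5 peak at 4360 sites (84.6%). At common sites listed over IgG the median distance was 70 bp and 62.2% were within 100 bp, so the intervals of these shares overlapped (58.9% to 61.6% and 59.6% to 64.7%). These pairs were picked for overlapping. The sites corresponded to 5118 DDX5 peaks, of which 291 spanned more than 1 site, up to 4.

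Sites absent over IgG held most of the strong DDX5 peaks over input. Of the 10762 DDX5 peaks over input on these chromosomes, 247 (2.3%) reached 8-fold. A member of the set lay at 225 of the 247 (91.1%, 86.8% to 94.3%), against 47.6% of all DDX5 peaks over input. A common site listed over IgG lay at 18 of the 247 (7.29%), against 14.5% of all DDX5 peaks over input. Any Fra-1 peak over input lay at 239 of the 247 (96.8%), against 61.8% of all DDX5 peaks over input. A higher overlap of strong DDX5 peaks was thus seen with the set and with all Fra-1 peaks over input, which include it. It was not seen with common sites listed over IgG. The rule used this same DDX5 list, so these shares are a description. DDX5 peaks with no Fra-1 peak over input had a median fold of 3.97.

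The 10 sites with the highest Fra-1 −log10 q, the authors' measure of how far a pileup exceeds its control, included 9 of the 10 with the highest DDX5 −log10 q. Of these 10 leading sites, 5 lay close together on the short arm of chromosome 17. The first, at 18966489 to 18967538, had a Fra-1 pileup of 163.6 and a DDX5 pileup of 232.4 (27.3-fold and 38.1-fold over input). The neighbouring site at 18965123 to 18966098 had 115.8 and 163.6 (21.2-fold and 26.8-fold). At 19091181 to 19092163 the pileups were 143.3 and 190.5 (21.0-fold and 32.1-fold).

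Also on the short arm of chromosome 17, the site at 19092737 to 19093693 had 105.2 and 166.6 (18.7-fold and 24.0-fold). The site at 19015044 to 19016097 had 128.2 and 216.5 (16.7-fold and 27.1-fold). DDX5 stood above Fra-1 at all 5, with ratios of Fra-1 to DDX5 from 0.592 to 0.752. The nearest Fra-1 peak over IgG lay 18201 to 21047 bp from these 5, which is closer than the median gap of 58032 bp over all the sites.

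The other leading sites had the same order of signals. On chromosome 22, 43011160 to 43011818 had a Fra-1 pileup of 107.0 and a DDX5 pileup of 152.6, with summits 1 bp apart. On chromosome 1 the site at 16839637 to 16840934 had 153.0 and 180.6, that at 28974963 to 28975780 had 91.1 and 119.7, and that at 17222312 to 17223561 had 125.6 and 140.7. On chromosome 10, 14227502 to 14228027 had 91.1 and 122.7. The site that was among the leading 10 for DDX5 alone lay on chromosome 1 at 17066819 to 17068172, with 96.4 and 137.7. At these 11 sites together Fra-1 was below DDX5 every time, at ratios from 0.592 to 0.893. This order did not hold for strong sites in general. Among the 182 sites of at least 8-fold in Fra-1, DDX5 was at least as high as Fra-1 at 83 (45.6%, 38.2% to 53.1%).

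A level of IgG can be computed above which each of these sites would just miss the Fra-1 list over IgG. The calculation takes the scaled Fra-1 pileup, the Poisson upper tail that the deposited −log10 p follows, and the lowest −log10 p in that list, 4.09. For the first chromosome 17 site it gave an IgG level of 120.1 fragments, where the input level was 5.14 at the same depth. For the chromosome 22 site it gave 73.2 against an input level of 4.28, and for the chromosome 10 site 60.2 against 5.14. Over all 5152 sites its median was 8.52 fragments (6.18 to 12.3), and its ratio to the input level had a median of 1.97 (1.52 to 2.68) and reached 23.4. The value assumes that a summit below the threshold is the reason for the missing call. A peak can also be dropped for being narrow, since none in the list is under 200 bp.

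IgG itself was recorded at 33 of the sites, because a DDX5 peak called over IgG overlaps them. That list was not used to choose the sites, although the DDX5 library behind it was. The 33 make 0.641% of the 5152 (interval 0.441% to 0.898%), against 0.141% in the whole Fra-1 list over input and 0.622% (0.285% to 1.18%) at the common sites listed over IgG, so both kinds of common site had like shares. Only 61 DDX5 peaks were listed over IgG at all, and 37 of them (60.7%, 47.3% to 72.9%) overlapped a member of the set. Among all DDX5 peaks over input the share was 47.6%, which lies inside that interval. Of the 9854 Fra-1 peaks over input with neither a DDX5 peak nor a call over IgG, 0 overlapped a DDX5 peak over IgG, which allows a share of up to 0.0374% by the exact interval. Those peaks were chosen for having no DDX5 peak over input, and both DDX5 lists come from the same library. Their low share thus follows largely from that choice.

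The values of all 3 ChIP libraries at the 33 sites are given as a description, since the rule requires that Fra-1 was not called over IgG there. Taking the DDX5 peak over IgG whose summit was nearest, the IgG level had a median of 24.4 fragments (13.0 to 40.0) and a highest value of 133.0. Fra-1 had a median of 38.0 (25.6 to 50.4) and DDX5 a median of 65.8 (44.9 to 87.8). The Fra-1 pileup plus 1 over the IgG level plus 1 had a median of 1.49 (1.35 to 1.94) and a range of 0.964 to 3.01. For DDX5 the deposited fold over IgG ranged from 1.62 to 3.74, with a median of 2.63. The order was DDX5, Fra-1, IgG at 32 of the 33 sites. The exception was the chromosome 17 site at 19015044, where IgG was 133.0, Fra-1 128.2 and DDX5 216.5.

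These 33 sites have a DDX5 peak over IgG and, by the rule, no Fra-1 peak over IgG. That choice keeps DDX5 above IgG and Fra-1 near IgG, so the order of the 3 signals and the small Fra-1 excess are descriptions that the selection largely fixes. Summits of Fra-1 and DDX5 differ by up to 511 bp at these sites. At the 17 sites with summits within 100 bp, the median IgG level was 33.0 and Fra-1 over IgG 1.44 (1.31 to 1.49). The IgG level there was a median of 8.30 times the input level (4.53 to 12.8). The measured IgG level reached the computed one at 15 of these 17 sites, and at 25 of all 33.

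**Figure D2:**
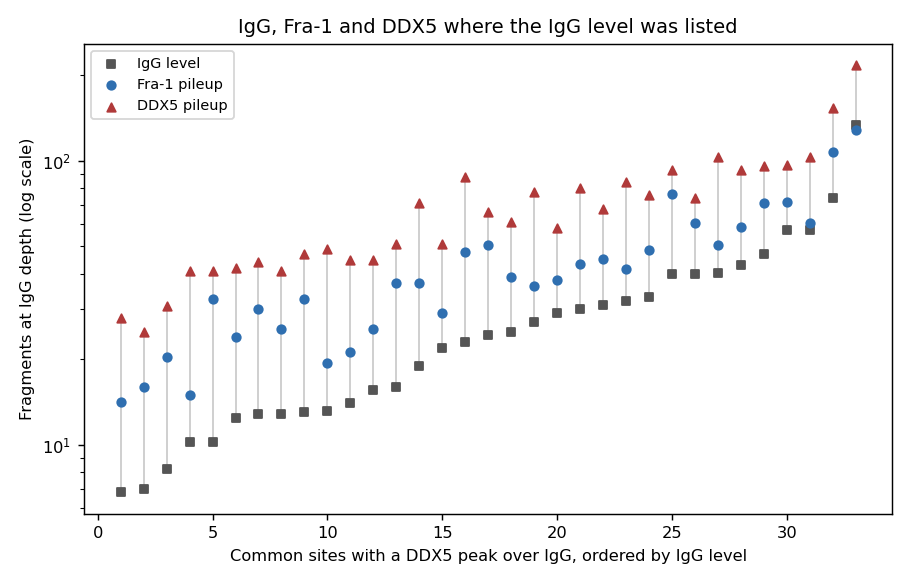
The 33 sites that overlap a DDX5 peak over IgG are ordered along the x axis by their IgG level, and the y axis gives fragments at IgG depth on a log scale; squares are IgG, circles Fra-1 and triangles DDX5, with a grey line joining IgG and DDX5. Circles lie between squares and triangles at 32 sites, and at the last, with an IgG level of 133.0, the circle falls just under the square.

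The 10 sites among these 33 with the highest DDX5 fold over IgG all had an IgG level under the median of the 33. The fold divides by the IgG level, so ranking by it favours low IgG levels by construction. At chromosome 1, 8763112 to 8763699, IgG was 10.2, Fra-1 32.7 and DDX5 40.9 fragments. Chromosome 7, 44104646 to 44104871, had the same IgG level of 10.2 and the same DDX5 pileup of 40.9, with a Fra-1 pileup of 15.0. At chromosome 11, 66045194 to 66045622, the values were 6.80, 14.1 and 27.9. These 3 sites had DDX5 folds over IgG of 3.71 to 3.74.

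A wide site on chromosome 1, 149822037 to 149825292, had an IgG level of 23.0, a Fra-1 pileup of 47.8 and a DDX5 pileup of 87.8. On chromosome 20, 62327898 to 62329865 had 19, 37.1 and 70.8. The next 5 sites by DDX5 fold over IgG lay on chromosomes 17, 17, 9, 3 and 16, at 36665804, 80188833, 21559770, 49756713 and 4742959, and their IgG levels ran from 7.0 to 13.2 fragments. Fra-1 exceeded IgG at these 5 by 1.44 to 2.41 times. At the chromosome 22 site among the leading 10, by comparison, IgG was 74.0, Fra-1 107.0 and DDX5 152.6.

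The sites gathered in stretches. When sites at most 12500 bp apart were joined, 2947 stood alone (57.2%), 476 stretches held 2, 195 held 3 or 4, and 79 held 5 or more. Those 79 stretches lay on 16 chromosomes and contained 602 sites (11.7%, 10.8% to 12.6%). No Fra-1 peak over IgG lay within 62 of the 79. When all Fra-1 peaks over input were joined in the same way, 1218 of the 5152 sites (23.6%, 22.5% to 24.8%) fell in stretches of 5 or more, against 14.9% of all Fra-1 peaks. Common sites listed over IgG reached 25.6% (23.3% to 27.9%), so the gathering was shared by both kinds of common site. For Fra-1 peaks without DDX5 the shares were 13.3% where absent over IgG and 11.8% where listed.

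The fullest stretch lay on chromosome 1 at 228744291 to 228782197. It held 33 of the sites in 37.9 kb, covering 60.4% of its length, beside 2 other Fra-1 peaks and 40 DDX5 peaks over input, and no peak of either list over IgG. Pileups varied along it by a similar range for both antibodies: the 35 Fra-1 peaks had 32.7 to 71.6 fragments and the 40 DDX5 peaks 33.9 to 80.8. Input was also high, with a median of 18.4 at Fra-1 depth against 4.84 over all the sites, so the Fra-1 folds stayed at 1.85 to 4.73. Whether reads from repeated copies account for the level was not tested.

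**Figure D3:**
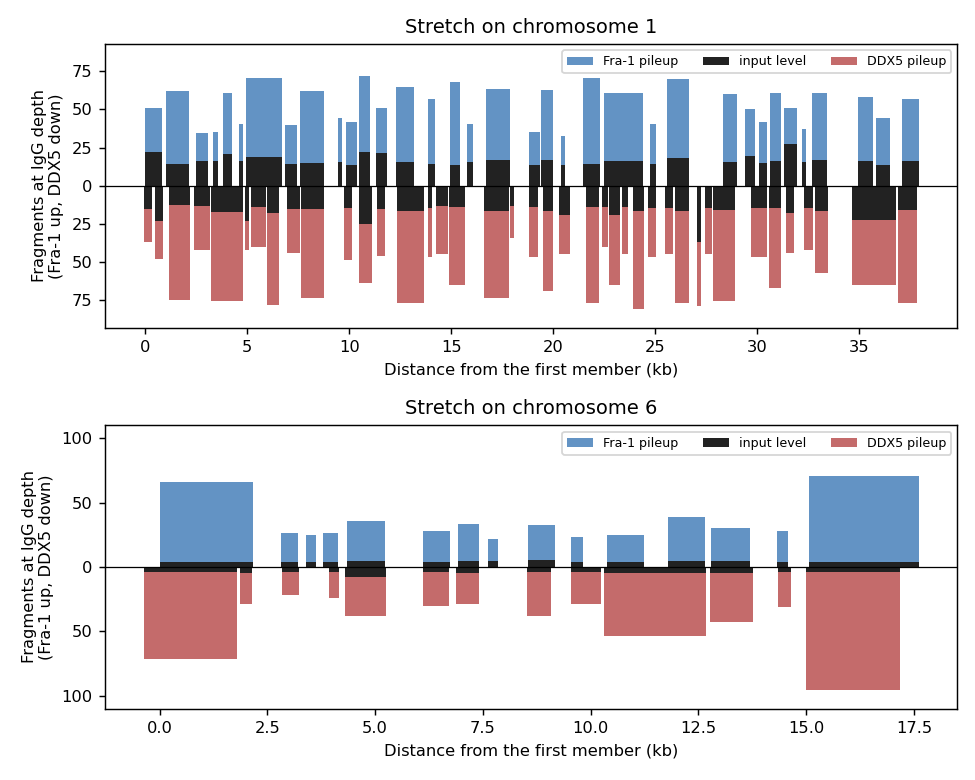
Peaks over input along the stretches on chromosomes 1 (upper) and 6 (lower), with the distance from the first member in kb on the x axis and fragments at IgG depth on the y axis; Fra-1 pileups are drawn upward, DDX5 pileups downward, and the black part of each bar is the input level. Both antibodies gave closely spaced peaks along both stretches, over a high input level on chromosome 1 (Fra-1 peaks, median 15.9) and a low one on chromosome 6 (median 3.75).

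Other full stretches had a lower median input level than the fullest, though not always near the median of all the sites. On X, 153570105 to 153640079 held 19 sites in 70.0 kb, with a median Fra-1 fold of 4.60 and 2 Fra-1 peaks over IgG between them. On chromosome 1, 161409783 to 161441160 held 17, at a median input level of 11.6 against 4.84 over all the sites, with levels up to 18.4. Its leading site, 161438715 to 161440366, reached 8.54-fold for Fra-1 and 7.68-fold for DDX5. On chromosome 11, 65183801 to 65214388 held 16. Its leading site, 65190062 to 65191108, reached 15.3-fold for Fra-1 and 12.2-fold for DDX5.

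The next stretch had a lower ratio of Fra-1 to DDX5. On chromosome 1, 110454250 to 110475472 held 15 sites that covered 70.0% of it, with a median ratio of 0.638. It held only 10 DDX5 peaks over input, so some sites were set against the summit of the same DDX5 peak. Sharing a summit lowers the ratio at the smaller Fra-1 peaks, so the median does not measure an excess of DDX5 site by site. Its leading site, 110472068 to 110475472, was the widest of the set at 3405 bp, with 8.22-fold for Fra-1 and 19.2-fold for DDX5. A stretch on chromosome 6, 160097821 to 160115431, was singled out after its values were seen. It held 13 sites that covered 64.1% of 17.6 kb at an input median of 4.16, with a median fold of 6.199 for Fra-1 and 7.03 for DDX5. Its highest site, 160112875 to 160115431, had a DDX5 pileup of 95.8, a Fra-1 pileup of 70.7 and an IgG level of 47.0. The input median of this chromosome 6 stretch was lower than the 18.4 of the fullest stretch, on chromosome 1. The reason for the close spacing of peaks in either stretch was not tested.

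The sites were spread unevenly over chromosomes. Chromosome 19 held 400 of them, 7.76% (7.05% to 8.53%), against 3.59% of all Fra-1 peaks over input. It held 4.84% (3.79% to 6.07%) of common sites listed over IgG, 4.26% of Fra-1 peaks with neither DDX5 nor IgG calls and 1.45% of Fra-1 peaks without DDX5 that were listed over IgG. Read per chromosome, 36.6% (33.7% to 39.5%) of the Fra-1 peaks over input on chromosome 19 belonged to the set. The share was 27.8% on chromosome 17, 26.2% on 22, and 23.0% on 16 and on 20. It was 8.21% on chromosome 4, 8.14% on 13, 7.52% on 18 and 6.89% on 21. Chromosome 1 held the most sites, 758, and 21.6% of its Fra-1 peaks belonged. Chromosome 19 is known as the most gene-dense, and chromosomes 4, 13 and 18 as gene-poor. Genes at the sites were not analysed here.

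**Figure D4:**
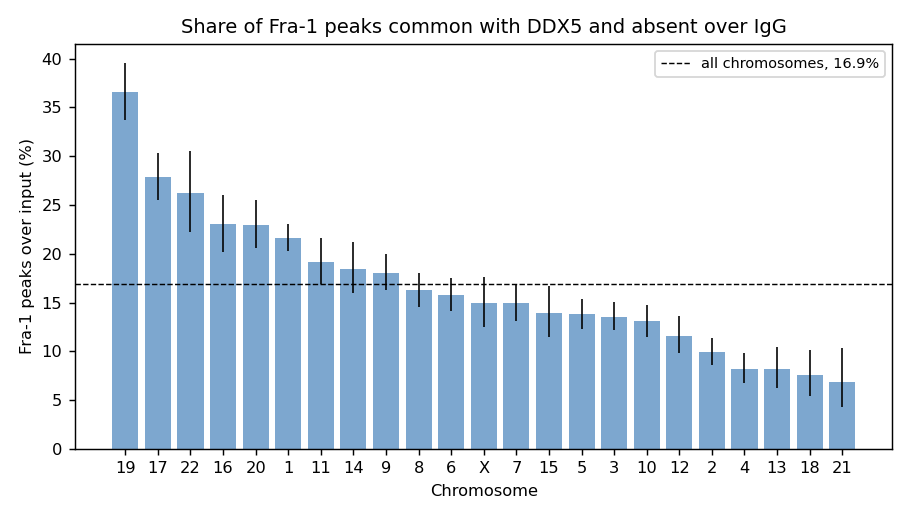
Bars give, for each chromosome on the x axis, the percentage of its Fra-1 peaks over input that are common with DDX5 and absent over IgG, with 95% exact binomial intervals; the dashed line is the value over all chromosomes, 16.9%. Chromosome 19 stands highest at 36.6% and chromosome 21 lowest at 6.89%.

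The median Fra-1 fold of the sites varied little between chromosomes, from 3.76 on chromosome 8 and 3.89 on chromosome 20 to 4.79 on chromosome 6. The chromosomes thus differed in how many of their peaks belonged, and less in how strong those were.

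Fra-1 peaks over IgG were seldom close by. Such a peak lay within 12500 bp of 1071 sites (20.8%, 19.7% to 21.9%), against 31.7% (30.8% to 32.6%) of the other Fra-1 peaks absent over IgG, those without DDX5. Over all Fra-1 peaks the share was 64.4%, which counts peaks that overlap such a call. Within 1 kb the shares were 4.39% and 10.9%. The median gap was 58032 bp (17352 to 145015 bp). Among Fra-1 peaks absent over IgG, those common with DDX5 thus less often had a Fra-1 peak over IgG nearby than those without DDX5. Neighbouring peaks are not independent and the rule used the Fra-1 list over IgG, so this difference is a description.

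The input level at the sites had the same median as at Fra-1 peaks listed over IgG. Its median was 4.84 fragments at Fra-1 depth, the same as at common sites listed over IgG (4.84) and at Fra-1 peaks without DDX5 that were listed (4.84), and 3.95 at those absent without DDX5. The lowest level the caller allowed was found at 627 sites (12.2%), against 15.2% of all Fra-1 peaks over input. The share was 8.64% at common sites listed over IgG. At Fra-1 peaks without DDX5 it was 15.0% where listed over IgG and 18.0% where absent. Equal medians therefore did not mean equal shares at the lowest level. A few sites had extreme input, and they were picked out after their values were seen. The highest Fra-1 pileup of the set, 339 at Fra-1 depth, belonged to chromosome 16, 46412829 to 46413050, where the input level was 277.8 and the folds were 1.22 for Fra-1 and 1.30 for DDX5. The next, on chromosome 8 at 46848393 to 46848592, had a pileup of 302 over an input level of 205.2. At chromosome 21, 9825463 to 9827625, a pileup of 274 stood over an input level of 88.1 (3.09-fold).

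Sites just inside and just outside the rule are given as values, with no test. The smallest overlap with a DDX5 peak was 1 bp, on chromosome 19 between 48111653 and 48111940, with 5.80-fold for Fra-1 and 3.78-fold for DDX5, and on chromosome 7 between 72971567 and 72972117, with 3.90-fold and 4.397-fold. Overlaps of 2 and 3 bp followed on chromosomes 1, 9 and 2, with Fra-1 folds of 2.77, 2.89 and 10.2. Just outside, a Fra-1 peak on chromosome 9, 116361301 to 116361893, touched a DDX5 peak with a gap of 0 bp (4.45-fold and 3.0-fold), and 4 others were 1 to 5 bp away with Fra-1 folds of 2.80 to 3.98. For the IgG side of the rule, the closest approach was 91 bp, at chromosome 19, 47539137 to 47539350, where the Fra-1 fold over input was 4.31 and the neighbouring Fra-1 peak over IgG had 4.94-fold. The next 4 were 105 to 125 bp from a Fra-1 peak over IgG, with Fra-1 folds over input of 3.09 to 6.06. The common sites with the smallest overlap with a Fra-1 peak over IgG, 200 bp in each of 5, had Fra-1 folds of 3.97 to 7.67 over input and 2.92 to 4.33 over IgG.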

How the data were processed

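Each library was sequenced once. Per the submitters' processing notes, CASAVA 1.8, Bowtie 0.12.9, HOMER and hg19 were used, with no role given. The peak caller is not given in the sources used here. In the authors' 4 deposited lists, peaks of 1 ChIP library are called against 1 control. Per the file headers, the signal is a pileup of fragments at the summit and the fold enrichment is a ratio. The deposited −log10 values stand in 2 columns whose headers are spreadsheet errors, read as p and q from their values. All serve to describe and rank peaks within lists.

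Pileups in the lists over IgG were multiples of 0.8843 (Fra-1) and 0.99755 (DDX5), within 0.02 for 100% of 10877 and 34 values below 60. Pileups over input were multiplied by these steps to reach IgG depth. Control level is the pileup plus 1 over the fold, minus 1. The DDX5 partner of a site is the overlapping peak with the nearest summit. Exact intervals are Clopper-Pearson, at 95%. No test was run, since each antibody has 1 library. The sites, rules and gene lists were chosen with earlier results of these data known. Sites named are the 10 with the highest −log10 q for each antibody, the 10 with the highest DDX5 fold over IgG, the 5 fullest stretches and the 5 at each edge of the rule. Overlap, stretch and scaling code was tested on simulated data. Versions were Python 3.11.15, scipy 1.17.1, numpy 2.4.6, matplotlib 3.10.9 and pandas 2.3.3. Genes, promoters, AP-1 motifs and sequences at the sites were not analysed here, because the reference used is GRCh38 and the peaks are in hg19.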

Additional observations from a re-analysis of the deposited data

How the results depend on the processing

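The count of 5152 became 3181 with centres within 100 bp, 1099 with both lists over input at or above their median −log10 q and 926 with both at 5-fold or more. It was 4757 with an overlap of at least 50% of either peak and 4926 without sites within 1 kb of a Fra-1 peak over IgG. The limits on q, on fold and on the 1 kb distance lower the count by construction. The rules of 100 bp and 50% were also applied to the overlap with Fra-1 peaks over IgG, which loosens that exclusion. Their counts are therefore not of stricter subsets of the 5152. Of the sites, 0.641% were also listed for DDX5 over IgG; this was 0.349% when centres had to lie within 100 bp and 1.79% among sites at or above the median −log10 q of the Fra-1 list. The share in dense stretches, 11.7%, became 6.79% with a gap of 5 kb and 24.3% with 3 or more sites, again by construction. The share on chromosome 19, 7.76%, became 5.76% among sites at or above that median, and was 7.08% outside dense stretches; the cause of the shifts at that median was not tested. Alternatives on promoters, AP-1 motifs and short structural RNA genes were not run. No paired analysis was possible because each antibody has 1 library. Absolute depth is unknown, so limits on single pileups were not computed, and the IgG level was recorded at 33 of the 5152 sites only.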
